A study of Mus musculus with 5 samples.

Results

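The genes described here are 10 transcripts of the cardiomyocyte response to mechanical stress and of the small heat shock family, namely Ankrd1, Xirp1, Xirp2, Csrp3, Flnc, Nrap, Cryab, Hspb1, Hspb7 and Des. They were chosen by symbol, and all 10 were among the 13711 genes listed in each of the 5 deposited expression tables. Their levels were followed by section and day, by the cell type score that was highest in a spot, and by the distance of a spot from those in which the score of the cardiomyocyte state CM4 was the highest.

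Visium spatial transcriptomes were measured in transverse heart sections of wild-type C57BL/6 mice. On a Visium slide, barcoded spots take up polyadenylated RNA from the tissue above them, and 1 spot may lie under several cells of different types, so that fewer cells of a type and less RNA per cell cannot be told apart. Myocardial infarction (MI, ligation of the left anterior descending artery) or sham surgery was done on postnatal day 1, and sections of 10 µm were cut 200 µm below the suture or at the corresponding position of sham hearts. Day 3 after surgery is represented by 1 sham and 1 MI heart section, and day 7 by 1 sham and 2 MI sections, so that only the day 7 MI group has a replicate error.

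Working heart muscle transmits force from the sarcomere through the Z-disc, the filamin and Xin-repeat scaffolds at the membrane and intercalated disc, and the desmin intermediate filaments. Stretch and pressure overload are known to raise several of these transcripts, Ankrd1 among the first, together with the natriuretic peptides. Small heat shock proteins bind unfolding client proteins, in muscle above all those of the Z-disc and of the desmin network.

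Promoter sequences from RefSeq (GRCm38.p6, the assembly of the deposited data) were found for 8 of the 10 members, and not for Xirp1 and Cryab. Those of Xirp2 and Des are shown because these genes, with Ankrd1, had the 3 highest mean differences between CM4- and CM1-dominant spots of the MI sections, and that of Hspb1 because it is the heat shock member with paired heat shock elements. Each is the 250 bases before the transcription start, 5′ to 3′ on the gene's strand, and of Ankrd1 only 30 bases are given, since GENCODE vM21 places them in the 5′ untranslated region of 1 longer transcript. Capitals mark matches to the TEAD core GGAATG on either strand, to the heat shock element pairs GAANNTTC and TTCNNGAA, to TATAAA on either strand, to the CArG box and to the MEF2 site.
Xirp2, chr2:67445752-67446001, plus strand: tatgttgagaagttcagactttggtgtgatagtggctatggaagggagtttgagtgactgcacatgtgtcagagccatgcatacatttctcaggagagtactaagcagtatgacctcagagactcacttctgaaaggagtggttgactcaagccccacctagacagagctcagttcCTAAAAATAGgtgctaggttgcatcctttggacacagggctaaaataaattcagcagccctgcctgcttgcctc
Des, chr1:75360042-75360291, plus strand: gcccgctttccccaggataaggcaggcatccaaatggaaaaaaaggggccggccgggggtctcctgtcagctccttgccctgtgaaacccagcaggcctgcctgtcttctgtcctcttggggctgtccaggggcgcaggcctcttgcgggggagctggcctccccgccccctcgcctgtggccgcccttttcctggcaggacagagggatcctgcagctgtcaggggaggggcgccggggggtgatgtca
Hspb1, chr5:135887669-135887918, plus strand: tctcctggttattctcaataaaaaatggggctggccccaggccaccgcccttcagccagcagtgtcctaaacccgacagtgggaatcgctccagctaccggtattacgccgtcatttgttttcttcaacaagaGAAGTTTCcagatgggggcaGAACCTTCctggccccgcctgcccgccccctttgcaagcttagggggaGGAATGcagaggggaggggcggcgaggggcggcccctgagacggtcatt
Ankrd1, chr19:36119945-36119974, minus strand: taagtctGGAATGAAAATTCacctgcctct

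In the full 300-base windows, Ankrd1 held 2 TEAD cores, and the second overlapped a GAANNTTC pair in the stretch shown. Hspb1 held 2 GAANNTTC pairs and 1 TEAD core, and Xirp2 held 1 MEF2 site. Flnc, in both of its promoters, and Hspb7 also held a TEAD core, Csrp3 held a GAANNTTC pair in 1 of its 2 promoters, and Des and Nrap held none of the motifs searched. Of the 8 members, 4 thus held a TEAD core, 3 a GAANNTTC pair, 1 a MEF2 site and 0 any of the others. Over all 32851 RefSeq promoters of the same length, 14.7% held a TEAD core, 7.86% held GAANNTTC and 3.19% a MEF2 site. TTCNNGAA was held by 8.52%, TATAAA by 13.6% and the CArG box by 1.63%. The member counts are per gene with a match in at least 1 promoter and these shares are per promoter, so they are not of the same unit. These matches are a description of letters and not of bound sites.

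The 5 sections held 3364 spots and between 11396022 and 37492530 raw UMIs each. The sham day 3 table held raw counts and the other 4 held depth-corrected values, so all levels are given as CPM, the value of a gene scaled to a common total over the shared genes of a spot, and averaged over spots. The mitochondrial share was 24.6% for MI day 7 replicate 1 and 13.8% to 15.7% elsewhere. Barcodes name grid positions, and 897 of the 1948 barcodes occurred in 2 or more sections, which does not mean shared cells. Xist, expressed from the inactive X chromosome, had 39 CPM in sham day 3 tissue, 48.5 CPM in the first MI day 7 replicate and no entry in the other 3 tables, and the Y-linked Ddx3y had 31.6 to 35.6 CPM in those 3 and 0 CPM in sham day 3 tissue. At day 3 the operation therefore cannot be told apart from the sex of the animal. Of the spots of the MI sections, 10, 5 and 3 in MI day 3 and MI day 7 replicates 1 and 2 lay detached from the tissue. All of these had fewer than 5000 raw UMIs and counted as far from CM4-dominant spots. Values without any spot under 5000 raw UMIs are given with the border calls of members, and not with those of other genes. The 7 cardiomyocyte markers (Myh6, Tnnt2, Tnni3 and others) summed to between 18929 and 23312 CPM by section, none of them at 0.

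The first question was whether the members differed between infarcted and sham hearts as a whole. No member was called, and the order of the sections differed from gene to gene. Ankrd1, an ankyrin repeat protein that binds titin at the I-band and enters the nucleus, averaged 694 CPM (sham day 3), 984 CPM (MI day 3) and 1005 CPM (sham day 7). It was at 935 and 1699 CPM in MI day 7 replicates 1 and 2, a mean of 1317 ± 540.1 CPM (SD, n = 2). Replicate 2 was the highest section, and replicate 1 lay below the sham section of its day. MI and sham sections therefore overlapped.

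Xirp2, a Xin-repeat protein of the intercalated disc and Z-disc that binds actin, was the lowest member by share of spots with a value. Its day 3 levels were 12.4 CPM after sham surgery and 53.1 CPM after MI. The day 7 sham section had 37.8 CPM, and MI replicates 1 and 2 had 31.2 and 56.9 CPM (44.1 ± 18.2, SD, n = 2). The sham day 3 section stood below all others, with 146 raw UMIs of Xirp2 (12.8 CPM over all genes, exact Poisson 95% interval 10.8 to 15.1, counting error only), and 20.8% of its spots had any. In the other sections 54.3% to 75.8% of spots had a value. Its paralog Xirp1 ranged only from 111 to 135 CPM over the 5 sections. The Xirp1 locus overlaps Cx3cr1 on the same strand in the annotation, so reads of these genes may not be fully separated.

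Csrp3 encodes muscle LIM protein, which links the Z-disc to the nucleus. Its level was 1405 and 1055 CPM in the day 3 sections (sham, then MI), and 1321, 1208 and 1333 CPM in the sham section and MI replicates of day 7. Flnc, a muscle filamin that crosslinks actin at the Z-disc and costamere, was at 224 and 178 CPM at day 3 and at 191, 141 and 202 CPM at day 7, in the same order of sections. Nrap, a scaffold of myofibril assembly and of the intercalated disc, was at 219 and 179 CPM at day 3 and at 244, 177 and 231 CPM at day 7. All 3 were lower in MI than in sham at day 3, and their day 7 MI sections lay on either side of or below the sham section.

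Among the small heat shock genes, Cryab (αB-crystallin, a chaperone of desmin) was at 1026 and 828 CPM in the day 3 sections (sham, then MI). Its day 7 levels were 1224 CPM (sham) and 959 and 1253 CPM (MI replicates). Hspb1, the most widely expressed small heat shock protein, was at 331 and 367 CPM at day 3 and at 284, 229 and 353 CPM at day 7. Hspb7, a small heat shock protein of heart and skeletal muscle that binds filamin C, was at 783 and 673 CPM at day 3 and at 838, 549 and 759 CPM at day 7. It was the 1 member whose 3 MI sections all lay below both sham sections, as did 9.6% of the 12933 genes tested, and 0 members lay wholly above, against 6.84% of genes. Des, which encodes the intermediate filament desmin, was at 605 and 735 CPM at day 3 and at 685, 548 and 771 CPM at day 7. Cryab overlaps the start of its head-to-head neighbour Hspb2 on the other strand, and whether counting used strand is not given in the sources used here.

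**Figure D1:**
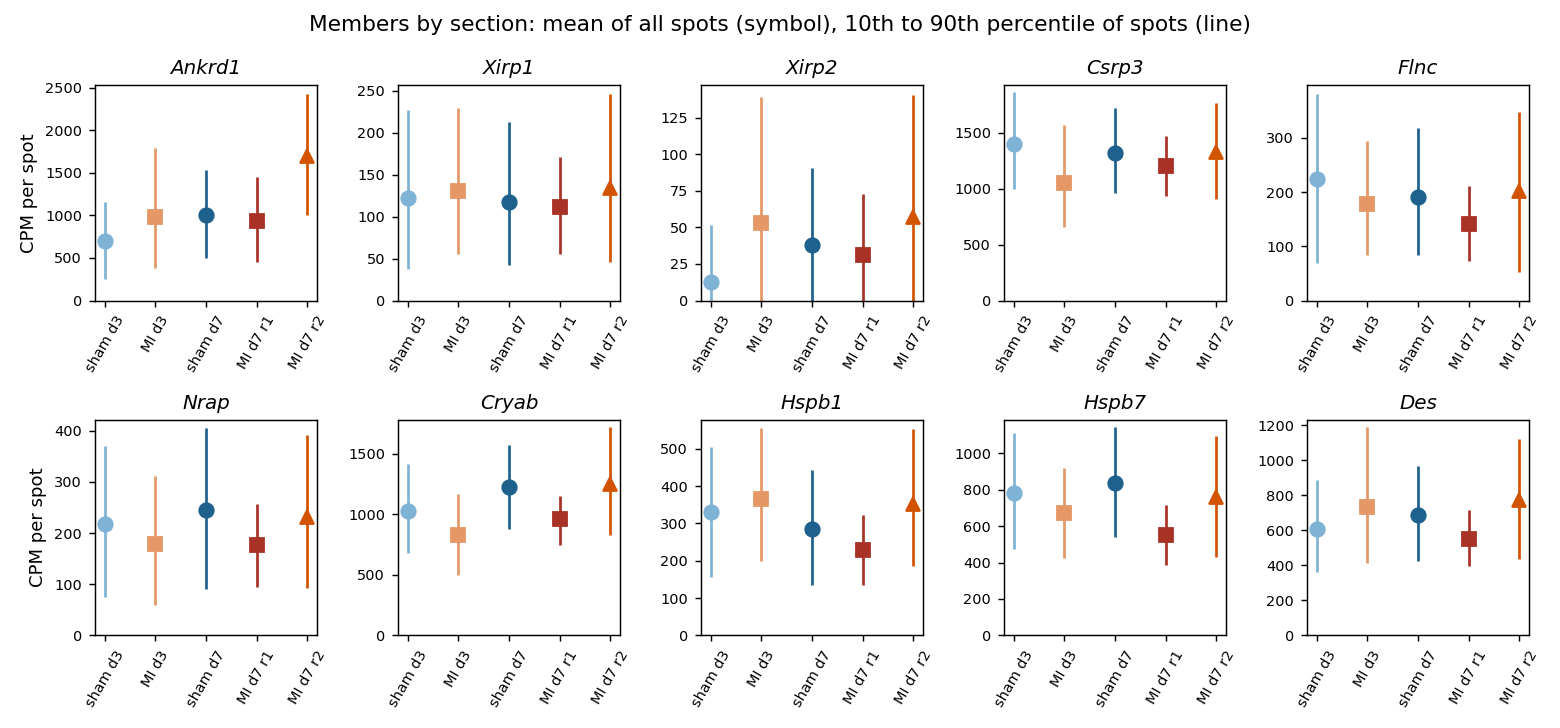
Level of each member in the 5 sections (y axis: CPM per spot, linear and starting at 0; symbol: mean over all spots; line: 10th to 90th percentile of spots, not an error of the mean). Ankrd1 was highest in MI day 7 replicate 2 (1699 CPM) and Xirp2 lowest in the sham day 3 section (12.4 CPM), and the 3 MI means of Hspb7 lie below both sham means, while the spot ranges of each member overlap between operations.

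In limma with day as a covariate (2 residual degrees of freedom), 0 of the 10 members were called between MI and sham, against 0.00773% of the 12933 genes tested, and 0 members reached an unadjusted p under 0.05, against 8.1% of genes. The estimates were 0.95 on the log2 scale for Xirp2 (SE 0.42, limma adjusted p 0.647), 0.40 for Ankrd1 (SE 0.25, adjusted p 0.749) and -0.31 for Hspb7 (SE 0.17, adjusted p 0.706), and those of the other 7 lay between -0.28 and 0.08. The median of all genes was -0.01. The Xirp2 estimate was 0.15 with either day 3 section left out, which leaves the day 7 contrast, and 2.02 without the sham day 7 section, which leaves the day 3 contrast. The latter sets 1 MI section against 1 sham section, so only the estimate is given. At day 7 alone, limma called 0 members, against 0.232% of genes, and 0 reached an unadjusted p under 0.05, against 4.11% of genes. That fit has 1 residual degree of freedom, and a p that misses the threshold does not show that levels were alike.

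At day 3, with 1 section per operation and no test, Xirp2 was 2.02 higher in MI on the log2 scale. It was the only member past 1, against 3.51% of genes. Ankrd1 was 0.50 higher and Des 0.28 higher, and the differences of Csrp3 and Flnc were -0.41 and -0.33. The median of all genes was 0.03. The sham day 3 table is also the only one of raw counts, and the part of that in the day 3 values was not tested. Between days, limma called 0 of the 10 members, and 0 reached an unadjusted p under 0.05, against 25.1% of genes. Called were 0.595% of genes (32 higher and 45 lower, or 127 and 58 under median-of-ratios scaling and 55 and 368 relative to cardiomyocyte markers). The day 7 minus day 3 estimates were 0.47 for Xirp2, 0.43 for Ankrd1 and 0.34 for Cryab on the log2 scale, with limma adjusted p values of 0.492, 0.309 and 0.232. Relative to the median of all genes, which was -0.18, these were 0.65, 0.61 and 0.52, values that were not tested. The Xirp2 estimate was -0.33 with either sham section left out, and 1.53 without the MI day 3 section, which leaves the contrast of the sham sections. Hspb8, a small heat shock gene outside the members that works with Bag3 in chaperone-assisted autophagy, was called higher at day 7 by 1.12 (SE 0.12, limma adjusted p 0.0272). It was at 41.3 and 50.4 CPM in the day 3 sections (sham, then MI) and at 97.5, 98.2 and 111 CPM in the sham section and MI replicates of day 7, with no overlap between days. The 1 other gene of the lists that was called between days was Myh7, the fetal myosin heavy chain, lower at day 7 at -1.91 (SE 0.18, limma adjusted p 0.0193).

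Levels were next set against the dominant cell type score. Scores of 11 types from 0 to 1 had been transferred by the authors from single-nucleus data, and CM1 to CM5 are cardiomyocyte states. CM4 is the immature, Acta2-expressing state that the study regards as regenerating cardiomyocytes, and it occurs in sham hearts as well. CM4-dominant spots numbered 57 and 40 in the day 3 sections (sham, then MI), and 58, 76 and 86 in the sham section and MI replicates of day 7. In sham hearts 56.1% and 43.1% of them lay at the edge of the section at day 3 and day 7, and in MI hearts 12.5%, 1.32% and 15.1%. The scores come from the same expression values as the genes, so differences between score classes are a description and carry no test. Without edge spots the mean difference over the MI sections was 0.79 for Ankrd1, 1.65 for Xirp2 and 0.44 for Des on the log2 scale, beside 0.84, 1.69 and 0.46 with them. Differences of the sham sections without edge spots are not given here.

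In the MI day 3 section, Ankrd1 averaged 2129 CPM in CM4-dominant spots and 799.9 CPM in spots dominated by CM1, a cardiomyocyte state with far more spots. In MI day 7 replicates 1 and 2 the values were 1342 and 774 CPM, and 2097 and 1689.6 CPM. In the sham sections they were 543 and 697 CPM at day 3 and 1009 and 942 CPM at day 7. Ankrd1 was thus higher in CM4- than in CM1-dominant spots of all 3 MI sections, by 0.84 ± 0.55 on the log2 scale (SD, n = 3), while the sham sections went in opposite directions. Among classes with at least 10 spots, CM4 had the highest Ankrd1 in each MI section. CM1 had the lowest in MI day 7 replicate 1, where fibroblast-dominant spots had 1073 CPM. In the MI day 3 section fibroblast- and CM5-dominant spots had 1149 and 1029 CPM.

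Xirp2 averaged 214 CPM in CM4-dominant and 22.1 CPM in CM1-dominant spots of the MI day 3 section. The values were 39.1 and 27.7 CPM in MI day 7 replicate 1 and 106 and 40.4 CPM in replicate 2. In the sham sections they were 10.7 and 11.3 CPM at day 3 and 35.7 and 36.2 CPM at day 7. The difference in MI was 1.69 ± 1.40 on the log2 scale (SD, n = 3), largest at day 3. High levels were not restricted to CM4-dominant spots. Spots dominated by fibroblasts had 106 CPM at day 3 after MI and 39.6 and 120.4 CPM in MI day 7 replicates 1 and 2, at or above the CM4-dominant spots of these replicates. Macrophage-dominant spots of the MI day 3 section had 89.3 CPM, and CM5-dominant spots there had 13.4 CPM, the lowest class.

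Des averaged 1244 and 692 CPM in CM4- and CM1-dominant spots of the MI day 3 section, 565 and 549 CPM in replicate 1 of MI day 7 and 1061 and 746 CPM in replicate 2. In the sham sections it averaged 579 and 652 CPM at day 3 and 725 and 718 CPM at day 7. Csrp3 averaged 1469.7 and 1067 CPM in the MI day 3 section and differed by at most 0.06 on the log2 scale in the day 7 MI sections. Hspb1 averaged 498 and 373 CPM in the MI day 3 section, 250.2 and 221 CPM in replicate 1 of MI day 7 and 429 and 344 CPM in replicate 2, a difference of 0.30 ± 0.12 (SD, n = 3). Cryab differed by 0.19 ± 0.13 and Flnc by 0.20 ± 0.19 on the same scale. Des differed by 0.46 ± 0.40, but in MI day 7 replicate 1 its difference was 0.042, below the 0.39 of Flnc, the 0.18 of Hspb1 and the 0.16 of Cryab.

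Markers of other cells also differed between these classes. In the MI day 3 section the fibroblast list summed to 6827 and 2948 CPM in CM4- and CM1-dominant spots, the immune list to 930.1 and 253 CPM and the smooth muscle and mural list to 1463 and 682 CPM, while the cardiomyocyte list summed to 16429.5 and 21630.5 CPM. In MI day 7 replicates 1 and 2 the fibroblast list was at 4469.6 and 3057 CPM, and 5789.8 and 3499 CPM, and the smooth muscle and mural list at 838 and 583 CPM, and 1055 and 833 CPM. Atrial markers, mostly Nppa, summed to 22771 and 3457 CPM in the MI day 3 section and to 358 and 70.4 CPM, and 4429 and 433 CPM, in the day 7 replicates. In the sham sections CM4-dominant spots held more of the blood list (4 haemoglobin genes), at 8578 and 3828 CPM in CM4- and CM1-dominant spots of day 3 and 19897 and 6377 CPM of day 7, and more of the fibroblast list, at 3869 and 2166 CPM and at 3610.5 and 2487 CPM. The part of these cells in the member differences was not tested.

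All 10 members were higher in CM4-dominant spots of the MI day 3 section, 9 in MI day 7 replicate 1 and 8 in replicate 2, against 0 in the sham day 3 and 2 in the sham day 7 section. The 8 members higher in all 3 MI sections were all except Nrap and Hspb7, and 44.2% of the 13285 genes did the same. The count was 4 without mitochondrial and haemoglobin genes, and 5 without edge spots or by the median over spots. The share of all genes was not counted under these settings, so these counts cannot be set against it. Of the members, 8 were lower in both sham sections, against 38.8% of genes, and 0 were higher in all 5 sections, against 8.83%. Xirp1, Xirp2, Csrp3, Flnc, Cryab and Hspb1 were higher in every MI and lower in every sham section, as were 15.8% of genes. Some of these signs rest on differences close to 0, such as 0.0034 for Flnc and 0.018 for Csrp3 in MI day 7 replicate 2. Others were 0.011 for Xirp1 in replicate 1 and -0.0086 for Hspb1 in the sham day 7 section. This pattern was not counted under other settings. For all 10 members the differences of the 3 MI sections lay above those of both sham sections, as they did for 35.2% of genes. The median of all genes was itself between 0.17 and 0.20 on the log2 scale in the MI sections and -0.10 and -0.09 in the sham sections. Most genes thus went the same way as the members in each section, and shares of all genes by single section were not counted. Ankrd1 and Xirp2 lay above that median in each of the 3 MI sections, whereas Xirp1, Csrp3, Nrap, Cryab and Hspb7 lay below it in both day 7 replicates.

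**Figure D2:**
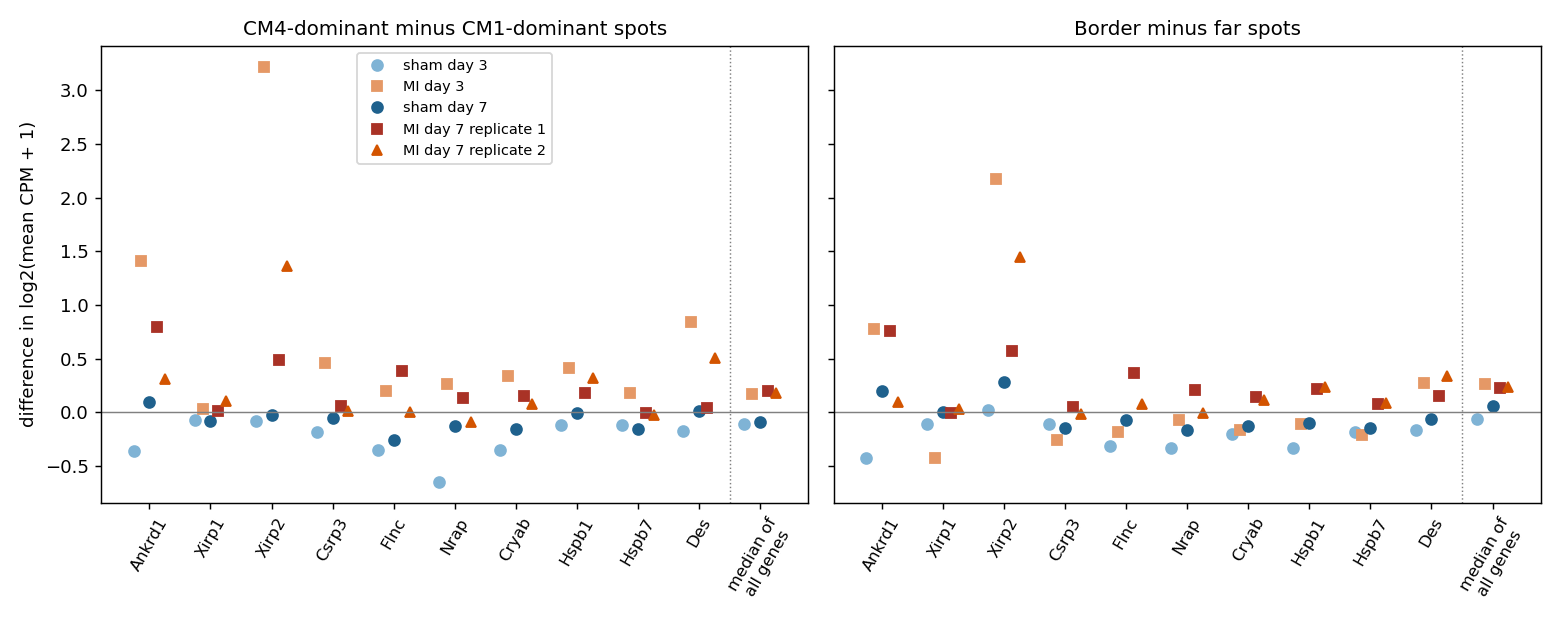
Difference of each member between CM4-dominant and CM1-dominant spots (left) and between border and far spots (right), as the difference in log2(mean CPM + 1), 1 symbol per section, with the median of all genes at the right of each panel. Xirp2 in the MI day 3 section reached 3.22 (left) and 2.17 (right), Ankrd1 and Des lay above 0 in the MI sections (the mean border difference of Des is -0.015 under median-of-ratios scaling), and most other members lay near or below the median of all genes at the border.

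Distance was then counted in spot spacings from the nearest CM4-dominant spot. Border spots lay next to a CM4-dominant spot, second-ring spots 1 step further out, middle spots up to 4 steps away and far spots beyond. In the MI day 3 section Ankrd1 fell from 2129 CPM in CM4-dominant spots to 1215 CPM at the border, 853 CPM in the second ring, 721 CPM in the middle and 710.2 CPM in far spots. In MI day 7 replicate 1 the series was 1342, 1088, 944, 892 and 643 CPM. Replicate 2 ran 2097, 1785, 1595, 1537 and 1669.6 CPM. The level thus declined with each step in replicate 1 and in the day 3 section, and in replicate 2 it declined up to the middle and was higher again in far spots. In the sham day 3 section the order was the other way, from 543 CPM in CM4-dominant to 840.0 CPM in far spots, and in the sham day 7 section levels stayed between 938 and 1074 CPM.

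Xirp2 in the MI day 3 section ran from 214 CPM in CM4-dominant spots through 79.9, 29.4 and 21.1 CPM to 16.9 CPM in far spots. In MI day 7 replicate 2 it ran 106, 92.2, 53.7, 39.8 and 33.2 CPM, and in replicate 1 it ran 39.1, 34.7, 31.1, 32.4 and 23.1 CPM. The share of spots with a value fell along with it, from 92.5% to 35.4% in the MI day 3 section. In the sham sections it stayed between 10.7 and 13.7 CPM at day 3 and between 32.2 and 41.5 CPM at day 7. Far spots of the infarcted hearts, at 16.9 CPM at day 3 and at 23.1 and 33.2 CPM at day 7, thus stood beside 12.5 and 32.2 CPM in far spots of the sham hearts of those days.

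Des ran from 1244 CPM to 799 CPM at the border and 661 CPM in far spots of the MI day 3 section, with its lowest value, 579 CPM, in the second ring. In MI day 7 replicate 2 it fell at each step, from 1061 to 664 CPM, while in replicate 1 it ran 565, 559, 553, 572 and 502 CPM, highest in the middle. Csrp3, Cryab, Hspb1, Hspb7, Flnc and Nrap shared another profile in the MI day 3 section, high in CM4-dominant spots, lowest in the second ring and higher again far away. Csrp3, for example, was at 1469.7 CPM, 839 CPM and 1159 CPM in these 3 places, and Hspb7 at 803, 563 and 709 CPM. In the same section Xirp1 was lowest at the border, at 104 CPM. In both sham sections Csrp3, Flnc, Nrap, Cryab, Hspb1 and Hspb7 were higher in far than in CM4-dominant spots.

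**Figure D3:**
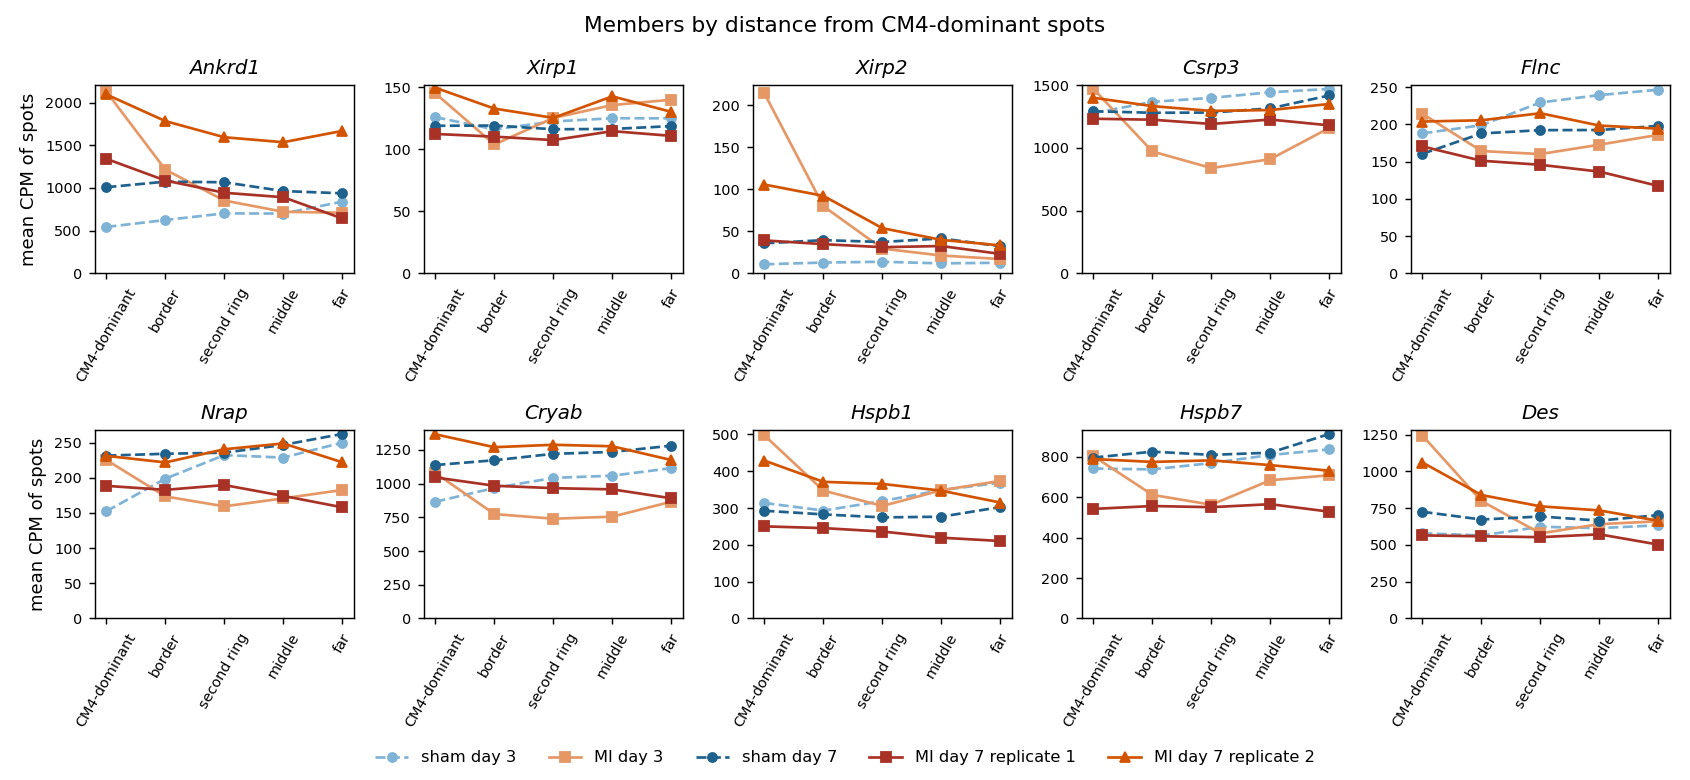
Mean CPM of each member (y axis, linear, starting at 0) in CM4-dominant spots and at increasing distance from them, 1 line per section (dashed: sham). Xirp2 falls from 214 to 16.9 CPM in the MI day 3 section and from 106 to 33.2 CPM in MI day 7 replicate 2, whereas both sham lines are nearly level.

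Border and far spots of the 3 MI sections were compared in limma with the section as a block, a test that leaves out the CM4-dominant spots themselves, although distance still rests on scores made from the same values. Over all genes the border stood higher, with a median of 0.25 on the log2 scale, and limma called 12.4% of 13096 genes higher and 0.283% lower (1623 and 37 genes). Under median-of-ratios scaling that median was 0.0062 and the calls were 234 higher and 275 lower, and without mitochondrial and haemoglobin genes 354 and 51. Ankrd1 and Xirp2 were called higher at the border, and 0 members lower. Xirp2 was at 79.9 and 16.9 CPM in border and far spots of the MI day 3 section, 34.7 and 23.1 CPM in replicate 1 of MI day 7 and 92.2 and 33.2 CPM in replicate 2, a difference of 1.40 (SE 0.22, limma adjusted p 0.0036). This was 1.15 above the median of all genes. Ankrd1 was higher by 0.54 (SE 0.13, limma adjusted p 0.0283), 0.29 above that median. The share of members called, 2 of 10, is close to the share of all genes, so the result is one of single genes and not of the group.

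The Ankrd1 call depended on the section and the scaling. The difference was 0.77 in the MI day 3 section and 0.76 in MI day 7 replicate 1, but 0.10 in replicate 2, where the median of all genes was 0.23. Without MI day 7 replicate 1 it was 0.44 (limma adjusted p 0.0904), with median-of-ratios factors it was 0.27 (limma adjusted p 0.27), without mitochondrial and haemoglobin genes 0.41 (limma adjusted p 0.099) and without edge spots 0.51 (limma adjusted p 0.0759), and none of these passed. Without the spots under 5000 raw UMIs, both Ankrd1 (0.54, limma adjusted p 0.039) and Xirp2 (1.53, limma adjusted p 0.0104) were called. In CM1-dominant spots alone, with 18 border spots in the MI day 3 section, 0 members were called, among 16 of all genes, and the estimates were 0.60 for Ankrd1 (limma adjusted p 0.167) and 1.00 for Xirp2 (limma adjusted p 0.248).

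Des was at 799 and 661 CPM in border and far spots of the MI day 3 section, 559 and 502 CPM in replicate 1 of MI day 7 and 839.7 and 664 CPM in replicate 2. Its difference of 0.25 (SE 0.09, limma adjusted p 0.0763) did not pass and lay at the median of all genes, and it was -0.015 under median-of-ratios scaling. The other 7 members had differences between -0.14 for Xirp1 and 0.12 for Hspb1, all below that median, with limma adjusted p values from 0.345 to 0.896. Those of Flnc, Nrap, Cryab and Hspb1, which were above 0, were below 0 under median-of-ratios scaling and without mitochondrial and haemoglobin genes. Without the MI day 3 section, limma called Ankrd1, Xirp2, Flnc, Hspb1 and Des higher, together with 20.6% of all genes.

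Markers of other cells moved with distance too. The fibroblast list (5 of 5 genes, none at 0) summed to 7341 and 3650.2 CPM at the border and far away in the MI day 3 section, to 5849.9 and 3252 CPM in MI day 7 replicate 1 and to 8169.7 and 4382 CPM in replicate 2. The immune list (6 of 6 genes, none at 0) summed to 1961 and 218 CPM, 147 and 152 CPM and 202 and 101 CPM in the same order. The smooth muscle and mural list (6 of 6 genes, none at 0) summed to 1132 and 665 CPM, 819 and 580.5 CPM and 1241 and 910.0 CPM. The cardiomyocyte list was lower at the border, at 15352 and 21278 CPM, 21886 and 22802 CPM and 20208 and 23279 CPM. Of the atrial list 3 of 4 genes were measured, none at 0, and Nppa, also a ventricular stress gene, made up most of its sum, at 15101 and 2277 CPM around the day 3 infarct, while the more atrial Myl7 was at 69.8 and 28.2 CPM. In MI day 7 replicates 1 and 2 Nppa was at 321 and 31.5 CPM, and 2357 and 203 CPM, and Myl7 at 1.89 and 0.114 CPM, and 4.95 and 1.28 CPM. The part of these cells in the member differences was not tested. Measured relative to the cardiomyocyte markers (a setting added once the values were known), 7 members were called higher at the border, namely Ankrd1, Xirp2, Flnc, Nrap, Cryab, Hspb1 and Des, along with 51.1% of all genes.

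Whether the border difference was larger in infarcted than in sham hearts was tested on the per-section differences. Limma called 0 of the 10 members, against 1.06% of 13326 genes in either direction (124 higher and 17 lower, or 27 and 21 under median-of-ratios scaling and 22 and 20 without mitochondrial and haemoglobin genes), and 5 members reached an unadjusted p under 0.05, as did 17.8% of all genes. The interaction was 1.24 for Xirp2 (SE 0.31, limma adjusted p 0.0604), 0.66 for Ankrd1 (SE 0.20, adjusted p 0.118) and 0.37 for Des (SE 0.12, adjusted p 0.143). The other 2 were Hspb1 (0.33) and Nrap (0.29). The median of all genes was 0.24, so that of Hspb1 and Nrap lay just above it. Des was the 1 member higher at the border of every MI section and lower at that of every sham section, as were 11.8% of genes. Leaving out single sections turned some calls on, with Hspb1 and Des called without the MI day 3 section (2.45% of all genes), Xirp2 without MI day 7 replicate 1 (1.16%) and Ankrd1 without replicate 2 (0.78%).

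Clustering of spots was measured next. Moran's I, which compares each spot with its neighbours and is near 0 for no clustering, was 0.307, 0.55, 0.384, 0.609 and 0.388 for Ankrd1 in the sham day 3, MI day 3, sham day 7 and MI day 7 replicate 1 and 2 sections. This was at least the 98.8th percentile of the 7580 genes at 10 CPM or more in each section. Xirp2 reached 0.459 in the MI day 3 section and 0.165 in MI day 7 replicate 2, and lay between 0.0345 and 0.0748 in the others. Des, Cryab and Csrp3 were at 0.417, 0.371 and 0.297 in the MI day 3 section and at 0.0944, 0.083 and 0.0943 in the sham day 3 section. The median over genes was 0.0339 in the former and 0.00752 in the latter, and these 3 members lay at percentiles 97.4, 96.6 and 95.2 and at percentiles 97.4, 96.7 and 97.4. Depth differs between sections and affects this measure, so sections are not ranked by it. Of the 10% of spots with the highest Ankrd1, 55.3%, 36.2% and 27.8% were CM4-dominant in MI day 3 and MI day 7 replicates 1 and 2, against 7.41% (day 3) and 5.21% (day 7) after sham surgery. Of all spots, 10.6% to 10.97% were CM4-dominant in those MI sections, and 10.5% and 6.04% in the sham sections.

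**Figure D4:**
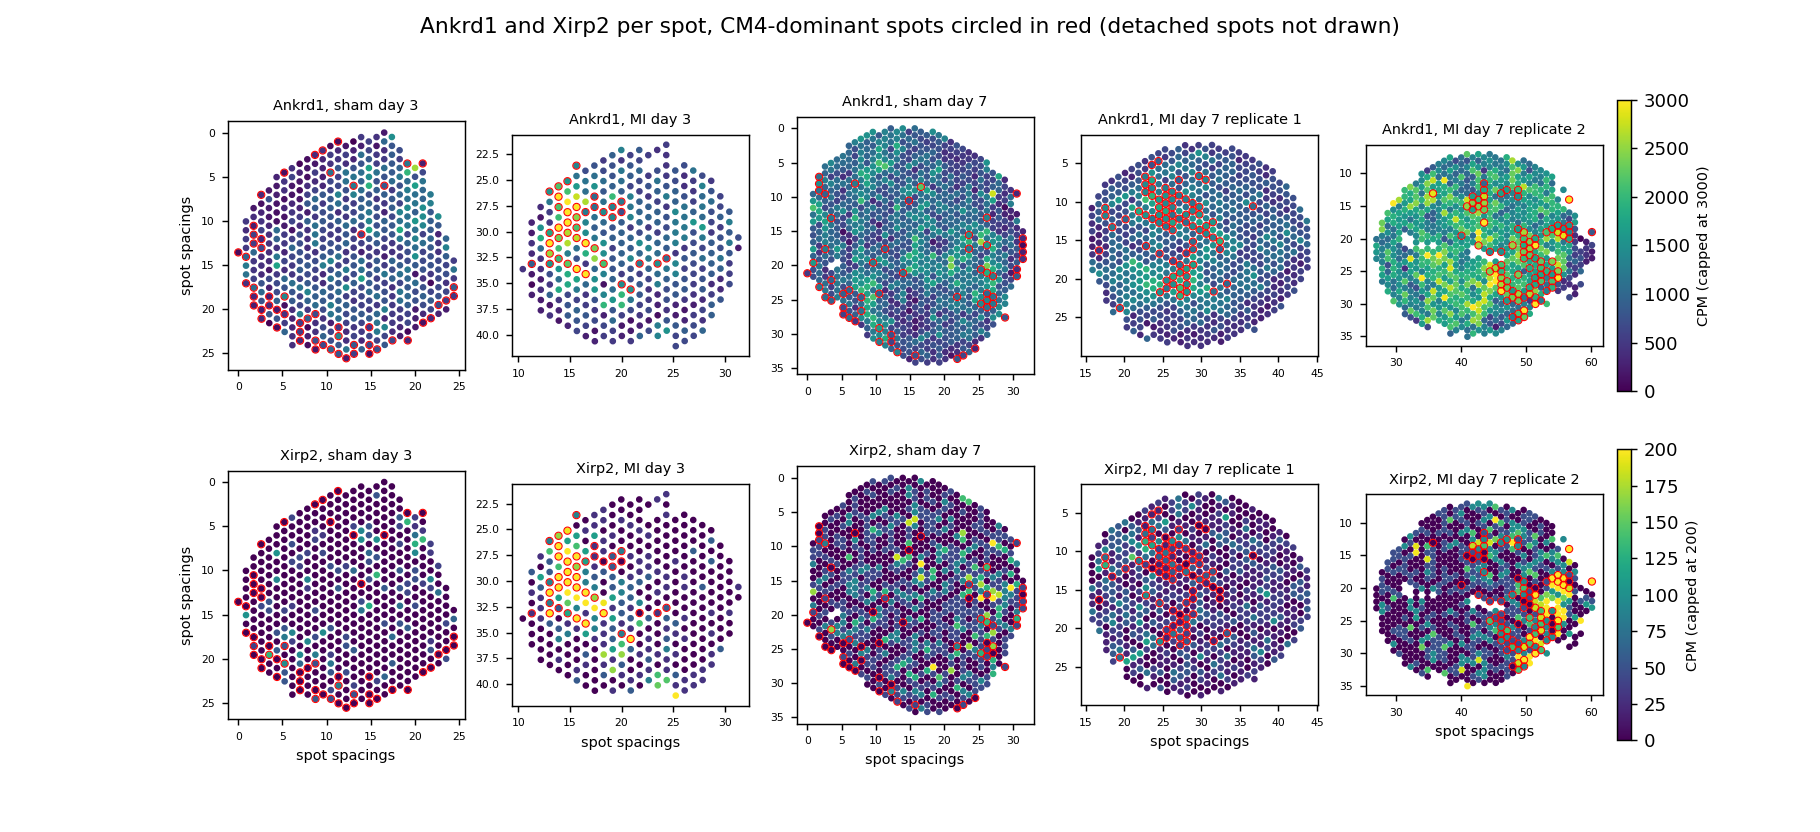
Spots of each section at their place on the slide (axes in spot spacings), coloured by the CPM of Ankrd1 (top, capped at 3000) and Xirp2 (bottom, capped at 200), with CM4-dominant spots circled in red and the 18 detached spots left out. Of the 10% of spots with the most Xirp2, 55.3% are CM4-dominant in the MI day 3 section, 14.5% in MI day 7 replicate 1 and 26.6% in replicate 2. In the sham sections 56.1% (day 3) and 43.1% (day 7) of CM4-dominant spots lie at the edge, against 15.8% and 12.7% of all spots.

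Across spots, the genes most like each member were described by the median over the 5 sections of Spearman's rho, which shares depth and tissue layout between genes and has no p. Ankrd1 was most like Nppa (0.52), Nppb (0.49) and Myl9 (0.46), with the 2 natriuretic peptide genes at 0.26 to 0.69 in single sections. Xirp2 was most like Nppb (0.19), Ankrd1 (0.19) and Nppa (0.18), and Des like Nppb (0.28), Ankrd1 (0.26) and Actc1 (0.26). For Xirp1, Csrp3, Flnc, Nrap, Cryab, Hspb1 and Hspb7 the first gene was Actc1, the cardiac α-actin, at 0.16 to 0.37. Among the members themselves, the 45 pairs had medians from -0.0048 for Xirp1 and Xirp2 to 0.26 for Ankrd1 and Des. In single sections Ankrd1 and Des reached 0.47, and Csrp3 and Hspb7 reached 0.46.

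Other genes of these pathways were read from lists. Of 8 cardiac load genes, 6 were called higher at the border of the MI sections and 0 lower, with a median of 0.96 against 0.25 for all genes. Nppa was higher by 3.19 (limma adjusted p 1.07e-06), Acta1, the skeletal α-actin of the fetal heart, by 1.30 (adjusted p 2.55e-05) and Nppb by 1.10 (adjusted p 7.28e-05). Of 10 YAP and TEAD targets, 3 were called higher and 0 lower, beside 12.4% of all genes called higher, and their median of 0.26 lay at the 0.25 of all genes. These were Ccn2 by 0.88 (limma adjusted p 0.00104), Axl by 0.85 (adjusted p 0.000579) and Ccn1 by 0.67 (adjusted p 0.0156). Ccn1 and Ccn2 are matricellular genes that fibroblasts and vessel cells also express, and Axl is a receptor kinase that macrophages and fibroblasts also express. For the difference of border effects between MI and sham, limma called 3 load genes (Nppa, Nppb and Rcan1) and 1 YAP and TEAD target (Axl), against 1.06% of all genes. Ccn2 was not called there (limma adjusted p 0.114).

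Of 17 measured genes of titin and Z-disc mechanosensing, 1 was called higher, Fhl1 by 0.46 (limma adjusted p 0.0185), a LIM protein of the titin N2B region. Their median was -0.11, and Tcap and Trim63, which cap titin and degrade sarcomere proteins, were at -0.30 and -0.30 (limma adjusted p 0.134 and 0.0553). Among 14 HSF1-type chaperones, with a median of 0.17, 1 was called higher, Hsp90aa1 by 0.33 (limma adjusted p 0.0281). Of 12 measured costamere and desmin network genes, with a median of 0.15, 1 was called higher, Vim by 0.56 (limma adjusted p 0.0167), the intermediate filament of fibroblasts and other mesenchymal cells. The 4 measured small heat shock genes outside the members, Hspb2, Hspb3, Hspb6 and Hspb8, gave 0 calls and lay between -0.12 and 0.09. Of all genes 12.4% were called higher, with a median of 0.25, and no list of this paragraph exceeded that share. How the border calls of list genes depend on the scaling is not given here. Between MI and sham across days, limma called 0 genes of these 6 lists, with 4 of their 65 tested genes (6.15%) at an unadjusted p under 0.05, against 8.1% of all genes.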

How the data were processed

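Visium libraries of 5 heart sections had been processed by the authors with Space Ranger against mm10 (GRCm38), as named in the submitters' processing notes, and normalised with sctransform in Seurat. The deposited sham day 3 table holds raw counts of UMIs per spot. The other 4 tables hold depth-corrected counts that the authors made with sctransform. Deposited metadata give the raw UMIs per spot and a score from 0 to 1 (a fraction-like transfer score) for each of 11 cell types, which the authors transferred from single-nucleus data, and deposited positions give each spot's pixel coordinates.

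Here values were turned into CPM over the 13711 shared genes and averaged over spots, so depth correction by the authors can compress differences in 4 sections and not in the fifth. Since most tables are not raw counts, log2(mean CPM + 1) was tested in limma 3.58.1 (R 4.3.3) with Benjamini-Hochberg adjustment over genes at 1 CPM or more in at least 2 profiles, a threshold of 0.05, and day or section as a covariate; a count model was not used. Python 3.11.15, pandas 2.3.3, numpy 2.4.6, scipy 1.17.1 and matplotlib 3.10.9 were used. Nothing in the labels says that sections of a group share an animal or batch, and p-values measure the spread between these sections, most groups holding 1. Raw UMIs per section ran from 11396022 to 37492530, and counting intervals cover counting error only. Members and lists were chosen with earlier results of these data known. Named genes are the 10 members, the 3 genes most like each member across spots, and up to 4 genes per list with the largest absolute difference; Tcap and Trim63 are among these. Motifs were searched on both strands of RefSeq promoters. Alternatives covered scaling, genes in the total, the pseudocount (5), the filter, the definition of CM4 spots and of far spots, edge spots, and leaving out each section.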

Additional observations from a re-analysis of the deposited data

Results flagged for a closer look

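For 6 members the difference between CM4-dominant and CM1-dominant spots was above 0 in every MI section and below 0 in every sham section. Some of these differences were close to 0, such as 0.0034 for Flnc in MI day 7 replicate 2 and -0.0086 for Hspb1 in the sham day 7 section. The mean difference in MI exceeded that in sham, on the log2 scale, by 1.74 for Xirp2, 0.50 for Flnc, 0.45 for Cryab, 0.37 for Hspb1, 0.30 for Csrp3 and 0.13 for Xirp1. The median of all genes was 0.28, so that Csrp3 lay near this shift and Xirp1 below it. The other 4 members had a section on the other side of 0, although their MI sections too lay above both sham sections, and for them the same difference was 0.97 for Ankrd1, 0.54 for Des, 0.49 for Nrap and 0.18 for Hspb7. These differences between operations were not tested, since the classes rest on the same expression values, and 15.8% of all genes had the same pattern of signs. CM4-dominant spots lay at the edge more often in sham than in MI hearts, and values of these differences without edge spots are not given.

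Des was higher at the border than far away in each MI section and lower in each sham section, with a mean difference between operations of 0.37, beside a median of 0.24 over all genes. The test of that difference did not pass in limma (adjusted p 0.143), and 11.8% of all genes had the same pattern.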

How the results depend on the processing

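Limits come first. Groups hold 1 or 2 sections, CM4 scores and genes come from the same values, and Xirp2 is sparse. No paired analysis between groups of sections was possible because the labels name no pairs, while the border and far spots of a section were compared within it. The cause of the changes below was not tested. Alternatives chosen after seeing the data were leaving out spots under 5000 raw UMIs and, for the border comparisons, values relative to cardiomyocyte markers.

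Under median-of-ratios scaling the genes called were 3 between MI and sham across days (1 as reported), 185 between days (77), 0 at day 7 (30), 509 between border and far (1660) and 48 for the difference of border effects between operations (141). Without mitochondrial and haemoglobin genes they were 196 between days, 0 at day 7, 405 at the border and 42 for the difference between operations. With a pseudocount of 5 they were 0 across days, 1018 at the border and 65 between operations. Relative to cardiomyocyte markers they were 2 across days, 423 between days, 128 at day 7, 6712 at the border and 91 between operations. The CPM of summed values gave 87 at day 7. Leaving out spots under 5000 raw UMIs gave 16 at day 7 and 86 between operations. A CM4 score of at least 0.5 gave 289 between operations. Without edge spots the counts were 501 at the border and 21 between operations, and in CM1-dominant spots 16 and 20.

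Members called at the border were 2 as reported, 1 under median-of-ratios scaling, without mitochondrial and haemoglobin genes and without edge spots, 0 in CM1-dominant spots and 7 relative to cardiomyocyte markers. Members higher in CM4-dominant spots of all MI sections were 8 as reported (44.2% of all genes), 4 without mitochondrial and haemoglobin genes, and 5 without edge spots or by the median over spots. For these alternatives the share of all genes was not counted.

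Signs changed on the log2 scale as follows. Between days, median-of-ratios scaling gave 0.12 for Xirp1, 0.048 for Flnc and 0.17 for Des, leaving out mitochondrial and haemoglobin genes gave 0.044 for Des, and cardiomyocyte markers gave -0.016 for Csrp3 and -0.12 for Hspb7. At day 7, leaving out mitochondrial and haemoglobin genes gave 0.031 for Csrp3 and 0.011 for Des, and cardiomyocyte markers gave 0.011 for Csrp3. At the border, median-of-ratios scaling gave -0.18 for Flnc, -0.22 for Nrap, -0.24 for Cryab, -0.15 for Hspb1 and -0.015 for Des. Leaving out mitochondrial and haemoglobin genes gave -0.037 for Flnc, -0.082 for Nrap, -0.095 for Cryab and -0.014 for Hspb1 there, and leaving out edge spots 0.017 for Hspb7. CM1-dominant spots gave 0.13 for Xirp1, 0.0497 for Csrp3 and 0.10 for Hspb7, and cardiomyocyte markers 0.13, 0.19 and 0.24. For the difference between operations, median-of-ratios scaling gave -0.21 for Csrp3, -0.068 for Cryab and -0.12 for Hspb7, and leaving out mitochondrial and haemoglobin genes -0.15, -0.0064 and -0.062. Xirp1 was at 0.011 with a CM4 score of at least 0.5, 0.15 in CM1-dominant spots and 0.00101 relative to cardiomyocyte markers.

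Leaving out each section in turn gave 0 to 360 genes and 0 to 1 members across days, 41 to 758 and 0 to 1 between days, 900 to 2747 and 1 to 5 at the border, and 4 to 327 and 0 to 2 for the difference between operations. Across days Des then ran from -0.075 to 0.28 and Hspb1 from -0.079 to 0.23. Between days Xirp2 ran from -0.33 to 1.53, Hspb7 from -0.099 to 0.13, Csrp3 from -0.088 to 0.27 and Des from -0.18 to 0.18. At day 7 Ankrd1 ran from -0.10 to 0.76, Xirp1 from -0.0799 to 0.20, Xirp2 from -0.27 to 0.58, Csrp3 from -0.13 to 0.013, Flnc from -0.44 to 0.079, Cryab from -0.35 to 0.034, Hspb1 from -0.31 to 0.31 and Des from -0.32 to 0.17. At the border Xirp1 ran from -0.22 to 0.0103, Csrp3 from -0.14 to 0.018, Hspb7 from -0.069 to 0.079, Flnc from -0.049 to 0.22, Nrap from -0.038 to 0.10 and Cryab from -0.025 to 0.13. For the difference between operations Xirp1 ran from -0.17 to 0.0601 and Csrp3 from -0.0103 to 0.14.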
